A study of Arabidopsis thaliana with 15 samples.

Results

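The H3K4me3 peaks of Arabidopsis thaliana seedlings, called on pooled H3K4me3 libraries against pooled total H3, are described here by the genes that carried them. The members are every peak of the deposited H3K4me3 list, 17686 of the 54366 peaks in the 3 deposited lists, or 32.5%, and no peak was left out. The other lists held 23189 peaks for H3K4me2 and 13491 for H3K36me3. The series profiled total H3, H3K4me2, H3K4me3, H3K36me3 and the input chromatin by deep sequencing, with 1 library for each assay and genotype and 15 libraries in all. The 3 genotypes were wild type, the fpa-7 single mutant and the bdrs triple mutant, all in the Col-0 accession, grown on plates in long days and taken as whole seedlings at 8 days of age. Chromatin was native, so it was not crosslinked, and was cut with micrococcal nuclease, which digests the linker DNA between nucleosomes. The H3K4me3 list gives 1 value per peak and none per genotype, and the sources used here do not say which genotypes were pooled. No comparison of genotypes and no replicate error can therefore be given, and every interval below covers counting error only.

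H3K4me3 is placed on the tail of histone H3 by SET-domain methyltransferases that work in COMPASS-like complexes and is removed by JmjC-domain demethylases. It marks nucleosomes at the 5′ end of genes transcribed by RNA polymerase II, where proteins with a PHD finger can bind it. In plants the mark is known for its presence on both constantly used and environmentally responsive genes, and FPA, the RNA-binding protein mutated in 1 of the genotypes, is known for its role in RNA 3′ end formation and flowering time.

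The peaks fell into a main group of similar height and a long tail of low ones. The deposited fold and −log10 p of a peak together fix the number of fragments stacked at its summit, called the summit height here, and the H3 level it was set against, because the fold equals the height plus 1 over the H3 level plus 1 and the p is the Poisson tail of the same pair. Heights obtained in this way returned the deposited −log10 p of each peak to within 0.00174. The median summit height was 617 fragments (exact Poisson 95% interval for 1 such peak 569 to 668), with quartiles of 473 and 708 and a range from 200 to 1160. The fullest bin of the distribution lay between 650 and 700 fragments and held 2512 peaks. The upper quartile was 1.50 times the lower, while 3193 peaks, 18.1%, stayed under 400 fragments, a limit chosen after the distribution was seen. A low summit can come, among other things, from fewer cells with the mark or from fewer marked nucleosomes in each cell. These cannot be told apart in whole seedlings, and a pooled list cannot show whether genotypes differed at a peak.

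The H3 level behind most folds was the same. For 13336 peaks, 75.4%, it was 67.7, so that 1 fragment more at the summit raised the fold by a fixed step of 0.0146. The other 4350 peaks were set against a higher local H3 level, with a median of 73.6. For these 13336 peaks the fold is thus the summit height on another scale and not an enrichment over the H3 of that position. Because heights are whole numbers over 1 shared level, 14008 peaks, 79.2%, had the same fold and p as at least 1 other peak. Folds ran from 1.64 to 15.0 with a median of 8.84. The lowest fold belonged to the narrowest peak, 119 bp at chr3:14203235-14203353 (TAIR10, as for all coordinates here), whose summit of 1037 fragments stood over an H3 level of 631. The next highest H3 levels in the list were 124 and 122.

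**Figure D1:**
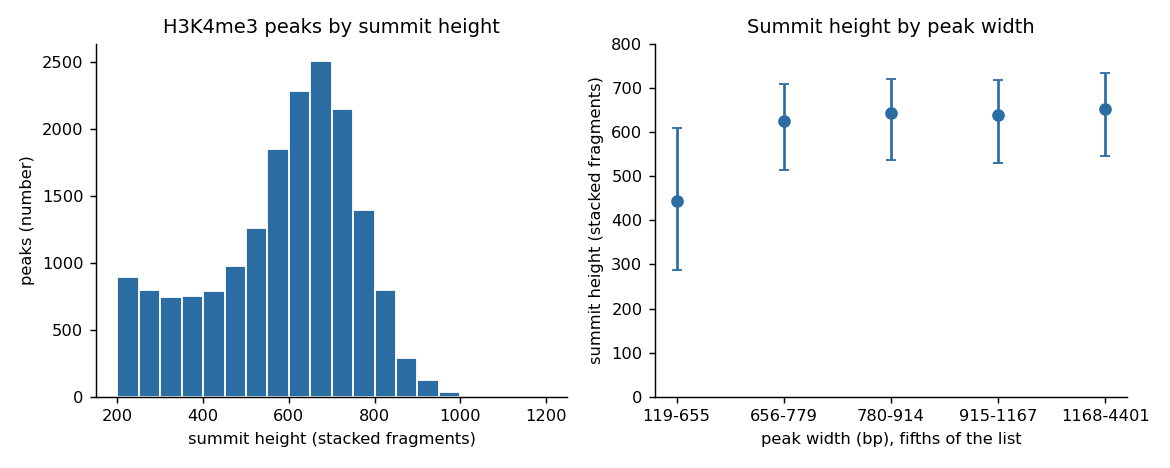
Left, the number of H3K4me3 peaks by summit height in bins of 50 stacked fragments; right, the median summit height (points) with its quartiles (bars) in 5 groups of peaks of rising width. The fullest bin lies at 650 to 700 fragments, and only the narrowest quintile has a clearly lower median, 445 fragments.

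Width had little to do with height once a peak was wider than about 650 bp. The median width was 834 bp, with quartiles of 682 and 1082 bp. The narrowest quintile of the peaks, 119 to 655 bp, had a median height of 445 fragments, and 44.0% of them stayed under 400. The next quintile, 656 to 779 bp, already had a median of 625, and the 3 wider quintiles had medians of 643, 640 and 653. Among the widest quintile, 15.2% of peaks lay over 2 or more coding genes, against 3.04% to 5.22% in the other 4. Across all 17686 peaks the Spearman coefficient of height and width was 0.29, a description over peaks that share the same libraries.

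On a gene, the mark sat as 1 block near 1 end of the body. The gene table gives no strand, so positions were measured from the nearer gene end. This was done in the 11039 peaks over a single coding gene of at least 2 kb that had their summit inside it. The summit lay a median of 312 bp inside the gene (quartiles 215 and 457 bp), the outer edge 65 bp inside (22 and 137 bp), and the inner edge 947 bp inside (781 and 1234 bp). The peak therefore began almost at the annotated end and ended about 1 kb into the body, and in 12.6% its outer edge reached beyond the gene. Of the 16742 coding genes that held a summit, 16257 held 1, 476 held 2 and 9 held 3. A peak over 1 coding gene was the rule, with 15974 peaks, while 1086 lay over 2 coding genes, 37 over 3 and 589 over none.

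Distances from the summit to the outer edge were not spread evenly but fell into steps. Their distribution in bins of 10 bp had local maxima at 135, 265 and 415 bp, which are 130 and 150 bp apart. Widths of all peaks had maxima at 655 and 785 bp, again 130 bp apart, and the summit stood most often 175 or 295 bp from the gene end. Nuclease-cut chromatin yields DNA in lengths of whole nucleosomes, but no source used here gives the peak caller's extension length, and its part in these steps was not tested.

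**Figure D2:**
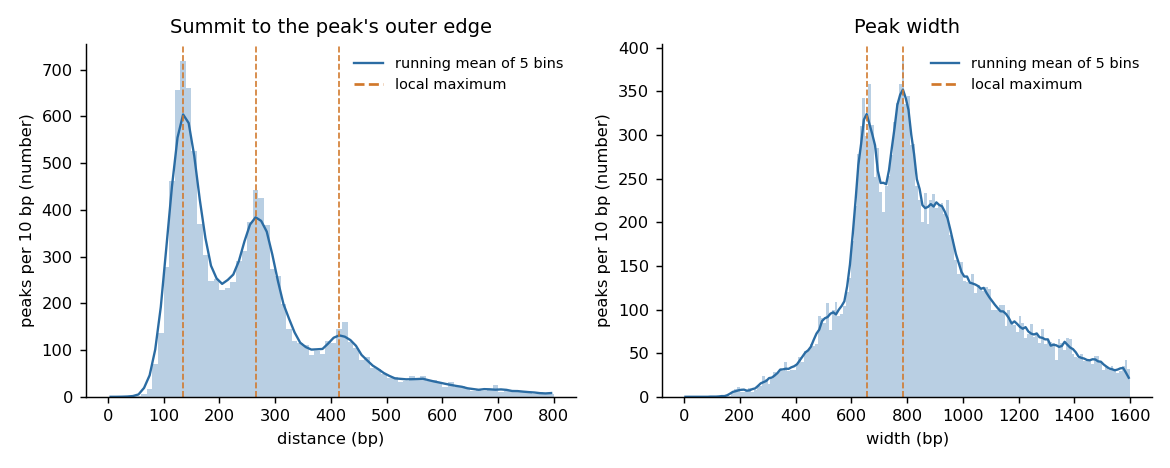
Number of H3K4me3 peaks per 10 bp of distance from the summit to the peak edge nearer the gene end (left) and of peak width (right). On the left are peaks over 1 coding gene of at least 2 kb with the summit inside it, on the right all peaks up to 1600 bp. Lines are running means of 5 bins and dashed lines mark local maxima. The left panel shows separate humps at 135, 265 and 415 bp and the right panel a double top at 655 and 785 bp.

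A coding gene was counted as carrying H3K4me3 when 200 bp or more of the gene body lay under peaks, with 50% of the body asked for below a gene length of 400 bp. By this rule 17194 of 27444 nuclear protein-coding genes, 62.7%, carried the mark, and this is the background for every count below. The same rule gave 75% for H3K4me2 and 49.9% for H3K36me3. The 5 chromosomes lay close together, from 59.7% on chromosome 2 to 63.7% on chromosome 5, with median peak heights of 612 to 623 fragments.

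Long genes carried H3K4me3 far more often than short ones, yet the marked stretch was of nearly constant length. In the shortest decile of genes, up to 770 bp, 15.8% carried the mark (exact binomial 95% interval 14.5% to 17.3%). The share grew through every decile, to 50.3% at 1147 to 1489 bp, 74.1% at 2079 to 2403 bp and 87.2% (85.9% to 88.4%) in the longest, from 4234 bp up. Carriers had a median length of 2460 bp and the other genes 1393 bp. From 1147 bp upward the marked stretch had a median of 821 to 898 bp. It thus took up 62.8% of the gene body in the decile of 1147 to 1489 bp and 15.6% in the longest. Median summit heights were 550 and 538 fragments in the 2 shortest deciles and 605 to 641 in the others. With a summit inside the gene as the rule, the shares were 12.5% in the shortest decile and 85.8% in the longest. The order turned when peaks had to cover 50% of the body of any gene, a rule that leaves out long genes by construction, with 15.5% and 1.42%.

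**Figure D3:**
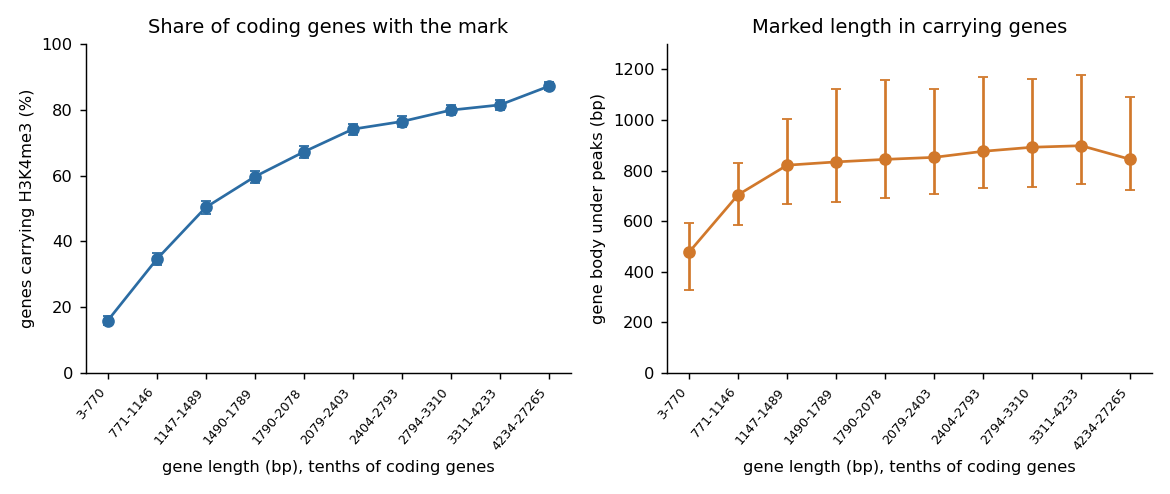
Left, the percent of protein-coding genes carrying H3K4me3 in deciles of gene length, with exact binomial 95% intervals; right, the median length of gene body under peaks in the carriers, with quartiles. The share climbs from 15.8% to 87.2% while the marked length levels off between 821 and 898 bp.

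Because of this trend, shares of gene groups are set beside a length-matched value, the mean of the shares of the length deciles that the group's genes belong to. Genes with a symbol carried the mark in 72.5% of 10374 cases, against a length-matched 69.9%, and genes without one in 56.7% of 17070, against 58.2%. Carriers also lay side by side: a gene with 2 carrying neighbours carried the mark in 73.4% of 11445 cases, with 1 in 61.2% of 11486, and with none in 39.1% of 4503. Neighbouring genes share peaks, so these are not independent points.

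Few of the H3K4me3 summits lay outside coding genes. These were 720 summits, 4.07%, of which 226 were in no annotated gene. They were lower and narrower than those inside, with a median height of 472.5 against 622 fragments and a median width of 637 against 842 bp. Peaks covered 13.9% of the genome. Coding genes covered a mean of 4.38% of each chromosome's gene-poorest 1 Mb window and 69.0% of windows at least 10 windows away. Their share of the whole genome was not computed. Of genes that do not overlap a coding gene, pseudogenes carried the mark in 88 of 3852 cases (2.28%), tRNA genes in 8 of 562 (1.42%), long noncoding RNA genes in 130 of 2059 (6.31%) and transcribed pseudogenes in 78 of 846 (9.22%). The tRNA genes, transcribed by RNA polymerase III, held no summit at all.

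Small nucleolar RNA genes had the highest share of these classes, with 161 of 203 (79.3%) under peaks, which became 7.88% with the strongest 50% of peaks, against 33.2% of coding genes. These RNAs guide the chemical modification of ribosomal RNA. Their genes had a median length of 89 bp, and the summit itself lay inside only 28 of the 203, so most lay within a peak whose top was elsewhere. Genes of the class named ncRNA carried the mark in 82 of 191 cases (42.9%), and 73 of these genes held the summit. Among them were GUT15 with a height of 718 fragments and the precursors of trans-acting small interfering RNAs, TAS1B with 620, TAS1A with 618, TAS2 with 553 and TAS3 with 443. In all, 5 of the 6 TAS loci carried the mark. These genes and the next were named after their values were seen.

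MicroRNA genes apart from coding genes carried H3K4me3 in 38 of 237 cases (16.0%). The tallest summits belonged to MIR156c with 832 fragments, MIR168a with 799 and MIR156a with 780. MIR156 RNAs hold back the change from juvenile to adult growth, and MIR168 acts on ARGONAUTE1, the protein that microRNAs work through. The lowest were MIR5998a and MIR5998b, which share a peak of 217 fragments, MIR164b with 222 and MIR864 with 230. Among pseudogenes, 5 of 13 SADHU elements, which are retroposons, carried the mark apart from coding genes, with SADHU2-1 at 727 fragments and SADHU1-1 at 718. Near-identical copies of such elements can share reads, so these assignments are uncertain.

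Genes in the gene-poor parts of the chromosomes carried the mark less often than genes elsewhere, at each gene length. The 21 windows of 1 Mb with less than 30% of sequence in coding genes held 1427 genes, of which 33.1% (30.6% to 35.6%) carried H3K4me3, against a length-matched 52.4%. In the other 100 windows it was 64.3% of 26017 genes, against a length-matched 63.2%. There were 27.6 peaks per Mb in the first and 174 in the second. In the shortest quintile of genes the shares were 6.57% and 27.3%, in the middle quintile 47.4% and 71.5%, and in the longest 69.3% and 84.9%. The genes that did carry the mark had it at a similar height, with a median of 637.5 fragments in gene-poor windows and 627 in the others. A gene-poor window on chromosome 2 held 121 genes with 4 carriers (3.31%), in the region of the 100-gene unmarked run described below. Reads there may have been dropped, and no share was recomputed without this window.

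The share also followed distance from the gene-poorest window of each chromosome. In those 5 windows 22.1% of 140 genes carried the mark. The share was 32.2% in the windows beside them, 46.9% at 2 windows, 54.9% at 3 to 4 windows, 63.8% at 5 to 9 and 69.6% of 10071 genes at 10 windows or more. The 32.2% includes the chromosome 2 window with 4 carriers among 121 genes. H3K4me2 was on 40.4% of the genes in gene-poor windows and on 76.9% elsewhere, and H3K36me3 on 27.2% and 51.2%. The 3 lists share the H3 control.

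**Figure D4:**
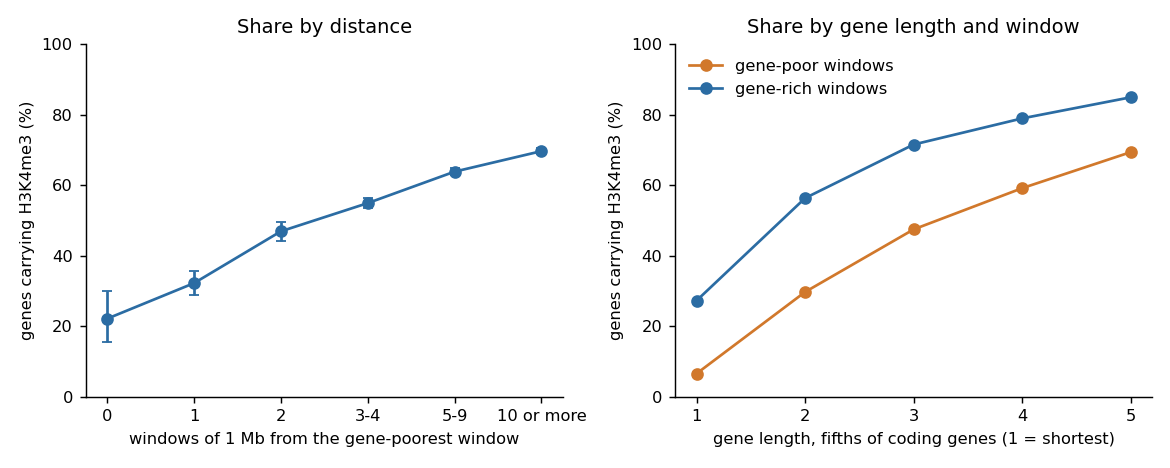
Left, the percent of coding genes carrying H3K4me3 by distance in 1 Mb windows from each chromosome's gene-poorest window, with exact binomial 95% intervals; right, the same percent in quintiles of gene length, in gene-poor and gene-rich windows. The share climbs from 22.1% to 69.6% with distance, and in each quintile of gene length it is lower in gene-poor windows.

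Genes with the mark and genes without it also formed runs of neighbours. The longest run of carriers was 27 genes over 93.0 kb on chromosome 3, from AT3G56990 to AT3G57230, among them ARR9, which dampens cytokinin signalling, and NRPE5, a subunit of RNA polymerase V. It had a median height of 652 fragments. After 2 further coding genes comes PR2, a pathogenesis-related glucanase gene, which carried none of the 3 marks. The next longest were 25 genes on chromosome 1, AT1G75945 to AT1G76185, with PETE1, a plastocyanin of photosynthetic electron transport, and 24 genes on chromosome 5, AT5G06240 to AT5G06460. Runs of 10 or more carriers numbered 245 and held 3188 genes. Runs of 10 or more genes without the mark numbered 37 and held 663 genes. With 62.7% of all coding genes carrying the mark, long runs of carriers arise in any order of genes, and their expected number was not computed.

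The longest run without the mark was 100 genes over 429 kb on chromosome 2, AT2G07440 to AT2G07680, in which none carried H3K4me3, H3K4me2 or H3K36me3. This stretch near the centromere is known for a large insertion of mitochondrial DNA, and a read that matches nuclear and mitochondrial copies equally may have been dropped. No source used here says how such reads were treated, and their part was not tested. The same caution holds for a run of 29 genes, AT5G50470 to AT5G50720, which holds duplicated copies of SPL13, SAE1B and HSD1, and for one of 21 genes, AT1G24793 to AT1G25210, which holds 5 LpxC genes. The next longest runs without H3K4me3 held 48 genes on chromosome 5, AT5G36300 to AT5G36870, and 31 on chromosome 3, AT3G30842 to AT3G32904. Their median gene lengths were 357 and 1074 bp, and that of the 100-gene run was 884 bp, against 2078 bp for all coding genes. Short genes carried the mark less often everywhere, and the part of gene length in these runs was not tested.

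All 10 genes of H3K4 methyltransferases and their partners carried the mark, against 62.7% of all coding genes. The interval of this share, 69.2% to 100%, includes the length-matched 83.8%. They had heights from 536 to 835 fragments and a median of 698.5. The tallest were ATX2, a trithorax-type methyltransferase, at chr1:1754159-1755311 with 835 fragments (779 to 894), and RBL, a COMPASS subunit, with 832 (776 to 891). ASH2R, another subunit, had 773, and ATXR3, which makes much of the plant's H3K4me3, had 751. WDR5A, the subunit that binds the histone tail, was lowest with 536 (492 to 583). Its interval does not overlap that of ATX2.

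Genes listed as H3K4 demethylases, whichever methyl state of H3K4 they act on, carried the mark in 8 of 9 cases, near the length-matched 84.5%. FLD, an LSD1-like protein of the autonomous flowering pathway in which FPA also acts, was tallest with 741 fragments (689 to 796). LDL1 had 692 and LDL2 591, and the JmjC genes JMJ14, JMJ18 and PKDM7D had 572, 550 and 408. JMJ15 alone held no H3K4me3 peak, though it carried H3K4me2. The genes AT1G63490 and AT2G38950, which the gene table names by identifier, had 552 and 697.

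All 13 genes of proteins with a PHD finger that binds H3K4me3 carried it (75.3% to 100%), an interval that includes the length-matched 76.2%. The 7 Alfin-like genes had 586 (AL5) to 842 fragments (AL1). ING1 and ING2 had 595 and 581, and EBS and SHL1, which hold back flowering, had 590 and 719. The ORC1 genes, which encode a subunit of the origin recognition complex used in dividing cells, stood apart at 386 (348 to 426) for ORC1A and 349 (313 to 388) for ORC1B. The other 11 had 581 or more.

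Genes for RNA polymerase II elongation carried H3K4me3 in 16 of 16 cases, against a length-matched 78.4%, with a median of 639 fragments. The subunits of the PAF1 complex, which travels with the polymerase, ranged from 506 for ELF7 to 726 for VIP5. HUB1 and HUB2, which attach ubiquitin to histone H2B, had 770 and 697. SSRP1 and SPT16, the partners in the FACT histone chaperone, had 778 and 594. Of the paired elongation factors, SPT5-2 had 714 fragments (663 to 768) and SPT5-1 only 357 (321 to 396), and SPT5-1 was the only gene of the 16 without H3K36me3.

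Chlorophyll synthesis genes carried the mark in 21 of 22 cases, against a length-matched 72.5%, with a median of 695 fragments. HEMA1, the glutamyl-tRNA reductase at the first committed step, had 844 (788 to 903) and HEMA2 746. The magnesium chelatase subunits, which put magnesium into the ring, had 694 for CHLI1, 681 for CHLI2, 695 for CHLD and 793 for GUN5. The GUN5 peak, chr5:4388165-4392280, was 4116 bp wide and covered 80.3% of the gene. The protochlorophyllide reductases differed: PORB had 496 and PORC 577 fragments, while PORA, known as the form of dark-grown seedlings, carried none of the 3 marks. The peaks of PORC and CRD1 lay over 2 coding genes and that of GUN4 over 3, so they cannot be given to these genes alone.

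The tricarboxylic acid cycle and its isozymes gave 13 of 16 genes with the mark, no more than the length-matched 81.4%, and the contrasts lay within pairs. The malate dehydrogenase gene mMDH1 had 944 fragments (885 to 1006) and mMDH2 524 (480 to 571). FUM1, the mitochondrial fumarase, had 800 (746 to 857) and FUM2, the cytosolic one, 244 (214 to 277) with no H3K36me3 peak. SDH1-1, the flavoprotein of succinate dehydrogenase, had 885, and its copy SDH1-2 held no H3K4me3 peak. The adjacent citrate synthase genes CSY1 and CSY2 differed likewise, with 705 fragments for CSY2 and none of the 3 marks on CSY1. CSY5 had no H3K4me3 peak either.

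Immune genes differed between the lists of receptors, signalling genes and outputs. All 18 receptor genes carried the mark (81.5% to 100%), an interval that includes the length-matched 84.8%. Their median height was 532.5 fragments, below the 627 of all carriers. CERK1, which binds chitin, had 809 (754 to 867) and the co-receptor BAK1 680, while the flagellin receptor FLS2 had 391 (353 to 432) and EFR, which binds bacterial elongation factor, 408. Among the intracellular receptors RPS2 had 355, SNC1 591 and RPP8 631. ZAR1 had the lowest of the 18, 317 (283 to 354), with neither H3K4me2 nor H3K36me3. The paired receptor genes RPS4 and RRS1 lay under 1 peak of 1791 bp, chr5:18325139-18326929, with 693 fragments. Such resistance genes include near-identical copies that can share reads. With peaks over a single coding gene alone, 14 of the 18 remained.

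Signalling genes downstream of the receptors carried the mark in 14 of 14 cases, against a length-matched 75.2%, with a median of 662.5 fragments. NPR1, NPR3 and NPR4, which perceive salicylic acid, had 631, 678 and 791, and the kinases MPK3, MPK4 and MPK6 had 702, 719 and 738. EDS1 and PAD4, which relay signals from intracellular receptors, had 605 and 595, and their partner SAG101 was lowest with 453. The peak of MPK3 lay over 2 coding genes.

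Immune output genes, those listed as switched on in defence, carried the mark in 1 of 12 cases, against 62.7% of all coding genes and a length-matched 54.5%. The exception was ICS1, the salicylic acid synthesis enzyme, with 512 fragments (469 to 558) at chr1:28070334-28070976. PR1, PR2, ALD1 and the defensin genes PDF1.2, PDF1.2b and PDF1.2c held none of the 3 marks. PR5, FRK1, FMO1 and the camalexin genes PAD3 and CYP71A13 held H3K4me2 alone.

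Cold response genes divided evenly, 6 of 12, with a length-matched 62.6%. ICE1, an activator upstream, HOS1, which targets ICE1, and the dehydrin gene COR47 had nearly equal heights of 606, 604 and 610 fragments and carried H3K36me3. In the adjacent CBF genes, the transcription factors of the response, CBF2 had 441 (401 to 484), CBF1 205 (178 to 235) and CBF3 no peak. The neighbours RD29A and RD29B had 239 and none. COR15A, COR15B, RAB18 and KIN1 had no H3K4me3 peak. CBF1 at 205 was close to the lowest height kept in the list, 200 fragments. A gene without a peak may hold one that was not kept, since the list keeps 76.3% of the peak numbers up to its highest, 23175.

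Regulators of meristems and organs carried the mark in 9 of 20 cases, against a length-matched 75.4%. The 11 without a peak were WUS and CLV3 of the shoot stem cell niche, PLT1 and PLT2 of the root tip, CUC1, CUC2 and CUC3 of organ boundaries, FEZ and SMB of the root cap, and AS2 and FIL of leaf polarity. Low summits lay on SHR with 218 fragments, ANT with 258, YAB3 with 289 and AIL6 with 294. Taller ones lay on the receptor genes CLV1 with 555 and CLV2 with 705, on AS1 with 590, on KAN1 with 537 and on SCR, the partner of SHR, with 676. The intervals of SHR (190 to 249) and SCR (626 to 729) do not overlap. H3K36me3 was on CLV2, AS1 and SCR and on none of the other 17.

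Genes of pollen, egg cells and anthers carried the mark in 1 of 18 cases, against a length-matched 48.7%. That 1 was the pollen actin gene ACT12, through 232 bp of a 2184 bp peak, chr3:17131235-17133418, that also lay over its neighbour RPP13, an immune receptor gene. The summit was outside ACT12, so by summits the count was 0 of 18. DUO1 and HAP2 of the male germ line, the egg cell genes EC1.1 to EC1.5, MYB98 of the synergid cells and AMS, DYT1 and MS1 of the anther had no H3K4me3 peak. H3K4me2 was on 9 of the 18 genes of the list, and H3K36me3 on 0. The labels name seedlings as the tissue, in which 21 of 22 chlorophyll synthesis genes carried the mark.

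**Figure D5:**
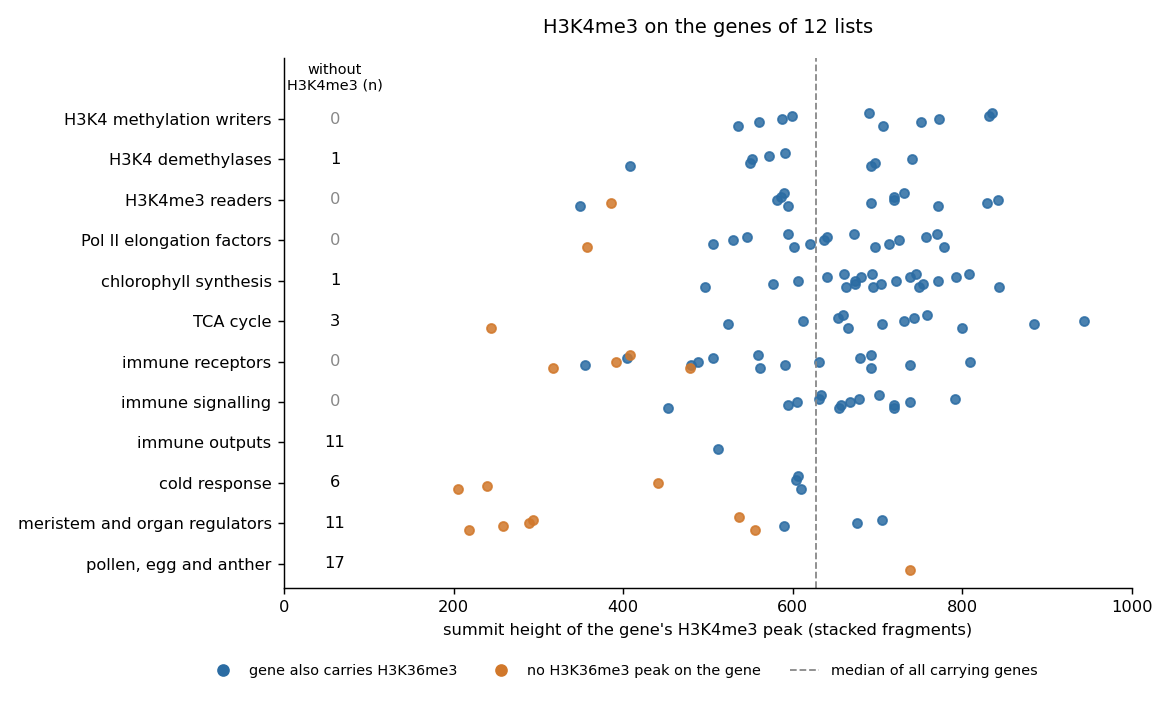
Summit height of the H3K4me3 peak on each carrying gene of 12 lists (points, coloured by whether the gene also carries H3K36me3), with the number of list genes without the mark at the left; the dashed line is the median of all carrying genes, 627 fragments. Genes of the writers, signalling and chlorophyll lists lie mostly above 500 fragments, and carrying genes without H3K36me3 lie mostly at the left. No H3K4me3 is on 11 of 12 immune outputs and 17 of 18 pollen, egg and anther genes.

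When only the strongest 50% of peaks were kept, 33.2% of all coding genes passed, and the lists lost carriers to unequal degrees. Immune signalling kept 11 of its 14 carriers, 78.6% of the list's genes, and chlorophyll synthesis 17 of 21, 77.3% of the list. Elongation factors kept 10 of 16 carriers and tricarboxylic acid cycle genes 10 of 13, each 62.5% of the list. Writers kept 6 of 10, or 60%. Immune receptors went from 100% to 27.8% and meristem regulators from 45% to 10%. No cold response gene and no immune output gene remained.

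Gene families, made by grouping symbols on their leading letters with a minimum of 20 genes, spanned the whole range. There were 58 of them with 2272 genes. At the low end stood families of small secreted peptides: SCRL with 0 of 27 genes, LCR with 2 of 81, RALFL with 6 of 32 and CLE with 6 of 30. Their genes are short, and the length-matched values were 21.2%, 23.6%, 24.6% and 32.7%. The intervals of SCRL (0 to 12.8%) and LCR (0.300% to 8.64%) lie below these values. Those of RALFL (7.21% to 36.4%) and CLE (7.71% to 38.6%) include them. One of the 2 LCR carriers, AT1G27340 with 744 fragments, bears the symbol for another reason, as an F-box gene, and the other was LCR69 with 235. CHX, a family of cation transporters, many of which are known from pollen, had 3 of 22 against a length-matched 80.4%. The 3 were CHX16, CHX18 and CHX20, with 456, 580 and 383 fragments.

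Few carriers did not mean low summits. The 6 RALFL carriers, whose peptides act on receptor kinases at the cell surface, had heights of 592 to 834 fragments, led by RALFL24 and RALFL22 with 834 and 830. The 6 CLE carriers, whose peptides signal to receptors in meristems and vascular tissue, had 226 to 549, with CLE41 lowest. The reverse held for arabinogalactan proteins: 20 of 30 AGP genes carried the mark against a length-matched 33.3%, but the median height of the carriers was 388, and 13 of the 20 were under 400. Of all carriers 15.8% were under 400. Other families with low carriers were GH, which joins GH3 and GH9 genes, with a median of 317, the fatty acid elongase family KCS with 330.5, the glutathione transferase family GSTU with 334 and the expansin family EXPA with 334.5.

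The 5 highest families had all or nearly all of their genes marked. Ribosomal protein genes with RPL symbols carried the mark in 22 of 23 cases, all but RPL12-B, against a length-matched 58.0%. Symbols with RPS came to 22 of 22, of which 4 were immune receptor genes, and the other 18 also all carried it, with a median of 680.5 fragments. RPL symbols likewise include RPL, a homeobox gene. VPS genes of vesicle sorting reached 28 of 29, all but VPS9B. Genes named for embryo defects in mutants reached 109 of 112 under EMB, all but EMB2271, EMB2743 and EMB2813, and 47 of 48 under emb, all but emb2204. The length-matched values were 72.9%, 74.4% and 75.7%.

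Set against length, the widest gaps below were those of CHX by 66.7 percentage points, the carboxypeptidase-like scpl genes with 31.4% for 78.2%, the UMAMIT transporters with 29.5% for 74.6% and the beta-glucosidases BGLU with 35% for 78.5%. Families of transcription factors and enzymes lay on both sides of their length-matched values. Below were MYB at 31.7% for 63.2%, NAC at 41.8% for 64.0% and the cytochromes P450 of the CYP family at 43.7% for 70.2%. Above were the ethylene response factors ERF at 83.3% for 48.4%, the transcription factor families bZIP at 60% for 44.9%, GATA at 72.7% for 58.2% and HB at 71.4% for 59.8%, and the glycosyltransferases UGT at 72.4% for 66.4%. The RABA small GTPases also lay above, at 90.5% for 59.0%. The intervals of ERF (62.6% to 95.3%) and RABA (69.6% to 98.8%) exclude the length-matched values. Those of bZIP (36.1% to 80.9%), GATA (49.8% to 89.3%), HB (51.3% to 86.8%) and UGT (59.1% to 83.3%) include them.

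The highest fold on a single gene with a symbol was on JAZ12, a repressor of jasmonate signalling, with a height of 1032. AKINBETA1, a subunit of the SnRK1 energy-sensing kinase, followed with 1025, and HSL1, a HAESA-like receptor kinase, with 1019. BZR1 and BES1, the paired transcription factors of brassinosteroid signalling, had 979 and 987. ASP3, an aspartate aminotransferase, had the most fragments of the first 10, 1041, but a fold of only 14.3, since its H3 level was 71.7 and not 67.7. The others were PFN2, LPPgamma, EIF4G and CAC1, with 961 to 989 fragments.

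The lowest folds on single genes with a symbol were those of ABCG35 at 2.63, MES7 at 2.65, hemf2 at 2.66, TDR1 at 2.68 and CYP705A25 at 2.70. Their heights were 230 to 297 fragments, above the lowest of the list, and their H3 levels, 84.7 to 112, were all above the common one. The widest single-gene peaks lay on BGAL1, a beta-galactosidase, with 4401 bp, and GLT1, a glutamate synthase, with 4247 bp. SIP2 with 4182 bp, GUN5 with 4116 bp and GLDP1, a glycine decarboxylase subunit of photorespiration, with 4029 bp came next. These covered 79.4%, 42.9%, 94.4%, 80.3% and 84.4% of their genes, with heights of 610 to 793.

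The height of an H3K4me3 peak went together with H3K36me3, the mark of the transcribed gene body, on the same gene. The 12778 carriers that also had H3K4me2 and H3K36me3 had a median of 661 fragments (quartiles 586 and 732), and 2.27% of them were under 400. The 727 with H3K36me3 but no H3K4me2 had a median of 682. The 3546 with H3K4me2 but no H3K36me3 had a median of 346 (268 and 444), and 65.1% were under 400, and the 143 with neither mark had a median of 320. Median gene lengths in these 4 groups, in the order given, were 2602.5, 1843, 2002 and 1314 bp. These values are set side by side as a description, because the lists share the H3 control and each has its own unstated selection of peaks.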

How the data were processed

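Native ChIP-seq libraries of 8-day-old seedlings were pooled by mark before peaks were called, per the peak names in the deposited files. The submitters' processing notes name MACS2, R 3.3.2, SAMtools 1.3, Picard 2.2.4, Bowtie2 2.2.6 and Trimmomatic 0.33, and the genome build TAIR10. Roles, settings and the selection of the kept peaks are not given in the sources used here. The deposited fold is the caller's ratio over pooled H3, the deposited −log10 p comes from the caller too, the deposited score rescales the −log10 p, and the authors' last column is the summit offset.

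Summit height and H3 level were solved from the fold and −log10 p. The solving step was tested on data simulated with the same formula. That test cannot show whether the caller used this formula. Peaks were set on the RefSeq gene table of assembly TAIR10.1, of which no coordinate is printed. The share of peak sequence inside coding genes was 96.2% in place and at most 94.5% when shifted by 100 bp to 1000 bp. The table gives no strand and no promoter sequence, so the planned motif counts were not run. Python 3.11.15, numpy 2.4.6, pandas 2.3.3 and scipy 1.17.1 were used. Depth per library is unknown. Intervals are exact (Poisson or Clopper-Pearson, 95%), fragments without molecular identifiers are not independent molecules, and no tests were made, since each peak has 1 value.

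Genes were named by rule: list members outside their list's majority and the first 4 of each state, the 10 highest and 5 lowest folds and 5 widest peaks, the 5 highest and lowest families, and the 3 longest runs. Other genes were named after their values were seen. The members and lists were chosen with earlier results of these data known. A gene and a gene family that these rules or choices reach are not reported here.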

Additional observations from a re-analysis of the deposited data

How the results depend on the processing

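The shares were recomputed with other rules. With any overlap of 1 bp, and with windows of 500 kb, each share stayed within the 95% binomial interval of the value reported. With a summit inside the gene the share was 61.0% for all coding genes, 12.5% and 85.8% for the shortest and longest length decile, 13.8% for snoRNA genes, 0 for tRNA genes and for pollen, egg and anther genes, and 62.6% in gene-rich windows. With peaks over 50% of the body the share was 19.1% of coding genes, 1.42% of the longest length decile, 0.675% of pseudogenes, 8.27% in gene-poor and 19.6% in gene-rich windows. The lists then gave 10% for writers, 0 for demethylases, elongation factors, immune outputs and pollen, egg and anther genes, 7.69% for readers, 36.4% for chlorophyll synthesis, 12.5% for the tricarboxylic acid cycle, 11.1% for immune receptors, 42.9% for immune signalling and 20% for meristem and organ regulators. That rule excludes long genes by construction. With the strongest 50% of peaks the share was 33.2% of coding genes, 5.83% and 50.6% of the shortest and longest length decile, 7.88% of snoRNA, 1.21% of lncRNA and 0.701% of pseudogenes, and 19.1% and 34.0% in gene-poor and gene-rich windows. The lists gave 60% for writers, 33.3% for demethylases, 53.8% for readers, 62.5% for elongation factors, 27.8% for immune receptors, 0 for immune outputs and cold response and 10% for meristem regulators, and the median width was 890 bp. With a limit of 40% for gene-poor windows their share was 36.4%, and gene-poor windows stayed below gene-rich ones under each of the settings named so far. An alternative chosen after seeing the data, only peaks over 1 coding gene, gave 77.8% for immune receptors and 0 for pollen, egg and anther genes. No paired analysis was possible because each list pools its libraries and gives no value per sample. For the same reason no library could be left out, and the alternatives on promoter motifs were not run.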
